A study of Mus musculus with 6 samples.

Results

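The gasdermin family was followed in mpkCCD clone 11, a single immortalised clone from the cortical collecting duct of mouse kidney, grown as a polarized layer on a membrane support. The members were the genes Gsdmc, Gsdmc2, Gsdmc3, Gsdmc4, Gsdmd and Gsdme, and every probe set whose platform annotation names any of them was taken, alone or together with another gene. This gave 4 of the 28225 probe sets in the table, which name 4 of the 6 members. Gsdmc2 was named by 3 probe sets, Gsdmc and Gsdmc4 by 1 each, both shared with Gsdmc2, and Gsdme by 1 of its own. Gsdmd and Gsdmc3 had 0 probe sets under their symbol or gene identifier and were not analysed here. The family was chosen by the measured change of Gsdmc2, seen among the strongest rises with dDAVP, so the changes of the Gsdmc probe sets are a description. Their adjusted p-values place them within the whole table and are not independent evidence.

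By their labels, the 2 groups differed only in the hormone analog. The 3 vehicle samples received vehicle for 5 days, and the 3 dDAVP samples received 0.1 nM dDAVP (desmopressin, a synthetic analog of vasopressin that acts on the V2 receptor) for 5 days, after the layer had become electrically tight. Each sample was 1 Affymetrix Mouse Genome 430 2.0 array of total RNA, and values are log2 signals as the authors deposited them. The labels call the samples biological replicates but do not say whether they came from separate passages, so p-values reflect the variation among these 6 samples alone. The comparison asks which transcripts differ after long exposure to the V2 agonist.

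Gasdermins are cytosolic proteins whose amino-terminal part can form pores in membranes and is held inactive by the carboxy-terminal part. Proteases, many of them caspases, cut the link between the parts, and the freed fragments open the plasma membrane, which can let out cytokines of the interleukin-1 family and end in a lytic death called pyroptosis. Gsdmd is the substrate of the inflammatory caspases, and Gsdme can turn an apoptotic death into a lytic one. The Gsdmc genes are close copies of each other that lie side by side, and in the mouse they are best known from the epithelium of the gut, where cytokines of type 2 immunity raise them. mRNA levels say nothing of cleavage or of pores, which arrays do not measure.

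In the RefSeq gene order of the mouse (assembly GRCm38.p6, used for order only) the cluster on chromosome 15 runs Gsdmc, Gsdmc2, Gsdmc3, Gsdmc4, with 3 pseudogenes between them and a further one, Gsdmcl-ps, after Gsdmc4. Gsdme lies apart, on chromosome 6. The RefSeq promoter table held 300-base windows (250 bases before to 50 after an annotated start) for Gsdmc3 and Gsdme only. They are shown because they contrast the start of a gene of the cluster with that of Gsdme, although Gsdmc3 itself was not measured. Capitals mark the 1 match to TATANA. The windows read 5′ to 3′ on the minus strand of GRCm38.p6.
Gsdmc3, chr15:63878509-63878808: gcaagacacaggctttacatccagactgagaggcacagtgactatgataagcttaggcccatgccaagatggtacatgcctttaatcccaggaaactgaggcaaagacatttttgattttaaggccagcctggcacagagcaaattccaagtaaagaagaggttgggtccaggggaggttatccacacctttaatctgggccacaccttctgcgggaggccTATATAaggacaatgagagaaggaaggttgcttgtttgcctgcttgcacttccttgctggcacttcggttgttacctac
Gsdme, chr6:50261720-50262019: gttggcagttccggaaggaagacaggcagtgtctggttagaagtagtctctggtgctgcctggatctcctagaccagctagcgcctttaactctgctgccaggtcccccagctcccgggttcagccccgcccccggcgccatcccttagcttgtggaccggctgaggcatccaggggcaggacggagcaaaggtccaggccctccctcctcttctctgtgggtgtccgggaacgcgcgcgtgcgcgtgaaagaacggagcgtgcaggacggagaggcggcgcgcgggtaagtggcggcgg

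The Gsdmc3 window holds TATANA once, starting 29 bases before the annotated start, and has a GC content of 48.3%. The Gsdme window holds 0 matches to TATANA and has a GC content of 65.7%, where the median over the 32851 windows of this length was 52.7%. On either strand, TATANA occurs in 24.7% of these windows. Neither window holds the cAMP response element TGACGTCA (in 1.79% of windows) or its half-site TGACG (in 20.8%, a share that includes every window with the full element). That says only that these letters are not in these windows.

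Aqp2, the vasopressin-regulated water channel, measured 6.70 ± 0.042 log2 units in vehicle and 10.85 ± 0.072 in dDAVP cells (SD, n = 3), a log2 change of 4.15. Of the 12 listed principal cell markers 10 were measured, and 3 were higher at a limma adjusted p below 0.05. These were Aqp2, the V2 receptor gene Avpr2 and the sodium pump regulator Fxyd4, where 0.291% of all genes passed. The other 7 did not pass, and 3 of the 10 had negative log2 changes, the lowest being Gata3 at -0.08 ± 0.061 (SE). The medians of the arrays spanned 0.043 log2 units. Among all 28225 probe sets, 61 passed a Benjamini-Hochberg adjusted p of 0.05 in limma (0.216%). With dDAVP 53 were higher (0.188%) and 8 lower (0.0283%). The number of arrays limits the precision. Scaling each array to its hybridisation controls shifted the median log2 change over the table from 0.0039 to 0.15 and gave 275 higher and 7 lower.

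All 3 probe sets that name genes of the Gsdmc cluster had higher signals with dDAVP, by 2.00-fold to 3.16-fold, and Gsdme had 0.98 of its vehicle signal. The 3 Gsdmc probe sets passed over the whole table (3 of 4 members, where 0.188% of all probe sets were called higher, a share from which nothing is read because this contrast chose the family). Gsdme, the only measured member outside the chromosome 15 cluster, did not pass.

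Gsdmc2 alone was named by 1 probe set. It measured 7.08, 7.15 and 7.16 log2 units in vehicle replicates 1, 2 and 3, and 9.07, 8.64 and 8.67 in dDAVP replicates 1, 2 and 3. All dDAVP arrays lay above all vehicle arrays, as in 8.07% of the table, with 1.48 log2 units between the lowest dDAVP and the highest vehicle value, and dDAVP replicate 1 stood above the other two. The log2 change was 1.66 ± 0.11 (SE), or 3.16-fold (95% interval 2.64 to 3.79), with a limma adjusted p of 0.00143. It was number 7 of 28225 probe sets by size of increase. The vehicle values were close together, with an SD of 0.046, and the dDAVP values were wider, with an SD of 0.24. A single gene name does not show that the probes separate Gsdmc2 from its close copies, which was not tested.

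Another probe set is shared by Gsdmc2 and Gsdmc4. It measured 7.47, 7.50 and 7.66 in vehicle replicates 1, 2 and 3, and 9.12, 8.74 and 8.84 in dDAVP replicates 1, 2 and 3, in log2 units. Again all dDAVP arrays lay above all vehicle arrays, as in 8.07% of the table, and dDAVP replicate 1 was the highest array. The log2 change was 1.36 ± 0.11 (SE), or 2.56-fold (95% interval 2.16 to 3.03, limma adjusted p = 0.00315). What share of this signal came from Gsdmc4 cannot be told apart from Gsdmc2, since no probe set names Gsdmc4 alone (0).

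The last of the 3 is shared by Gsdmc2 and Gsdmc. The annotation ties it to a transcript that the RefSeq table lists for Gsdmc, while its gene field names both genes. It measured 6.82, 6.52 and 6.59 in vehicle replicates 1, 2 and 3, and 7.65, 7.77 and 7.51 in dDAVP replicates 1, 2 and 3, in log2 units. Here too all dDAVP arrays lay above all vehicle arrays, as in 8.07% of the table. The highest dDAVP array was replicate 2, not replicate 1. The log2 change was 1.00 ± 0.10 (SE), or 2.00-fold (95% interval 1.70 to 2.35, limma adjusted p = 0.0114). This call ended without dDAVP replicate 1 (log2 change 1.00, adjusted p = 0.0704), without dDAVP replicate 2 (0.93, adjusted p = 0.0646) and without vehicle replicate 3 (0.97, adjusted p = 0.0880). The calls of the other 2 Gsdmc probe sets held in all 6 fits that left out 1 array.

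**Figure D1:**
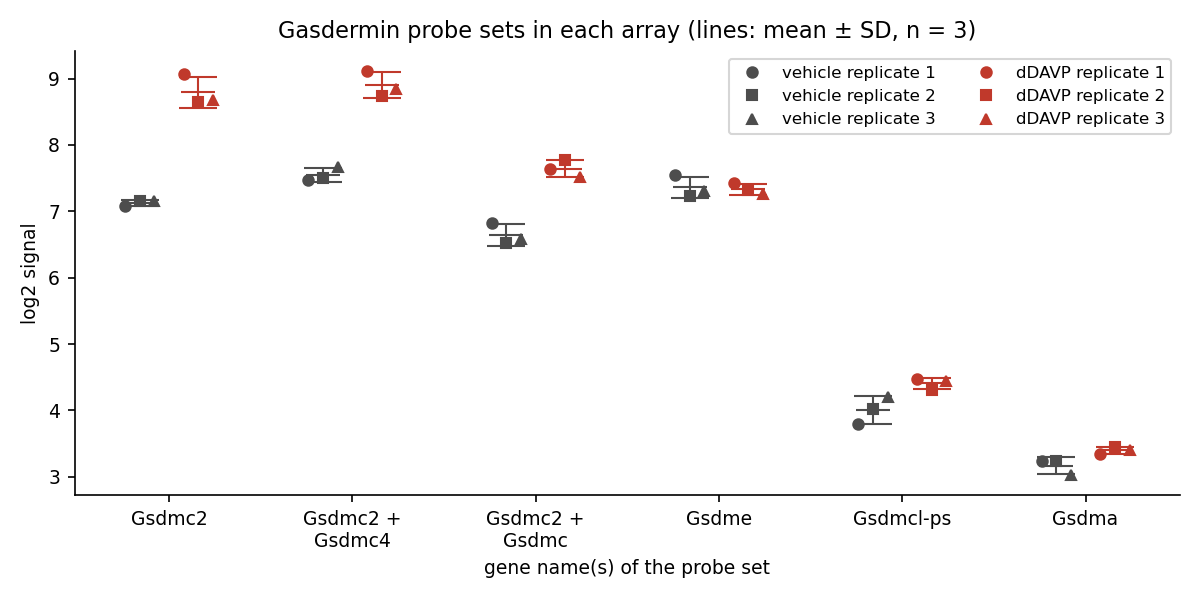
Log2 signal of the 4 member probe sets and of Gsdmcl-ps and Gsdma in each array, with vehicle in grey, dDAVP in red, symbols for replicate numbers and lines for the mean ± SD (n = 3). The 3 Gsdmc probe sets separate by treatment, while the Gsdme groups overlap.

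The 3 Gsdmc probe sets share Gsdmc2 as an annotated target, and their rises were set against each other array by array. The signal of the Gsdmc2 probe set minus that shared with Gsdmc was 0.49 ± 0.20 log2 units in vehicle and 1.15 ± 0.28 in dDAVP arrays (SD, n = 3), a gap wider by 0.66. For Gsdmc2 against the set shared with Gsdmc4 the gap moved from -0.41 ± 0.081 to -0.10 ± 0.060, a shift of 0.31. In both pairs the groups did not overlap, and the exact two-sided permutation p was 0.1, the smallest that 3 against 3 arrays allow (0.15 after Benjamini-Hochberg adjustment over the 3 pairs). The third pair, the set shared with Gsdmc4 against that shared with Gsdmc, shifted by 0.36, with overlapping groups and an exact permutation p of 0.3 (adjusted 0.3). No outcome of this test could fall below 0.05. The rise of Gsdmc2 chose the family, and each pair was taken with the larger rise first. The gaps and their p-values are therefore a description and decide nothing about a difference between the rises. Signals of different probe sets depend on their probes, so the gaps do not order the genes by abundance.

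Gsdme measured 7.54, 7.23 and 7.31 log2 units in vehicle replicates 1, 2 and 3, and 7.42, 7.33 and 7.25 in dDAVP replicates 1, 2 and 3, on its own probe set. The groups overlapped throughout, and vehicle replicate 1 was the highest of the 6 arrays. The log2 change was -0.03 ± 0.093 (SE), with a 95% interval of -0.24 to 0.19, or 0.846-fold to 1.14-fold (limma adjusted p = 0.972). Changes within these bounds cannot be told from none with 3 arrays a group. Its sign turned under scaling to hybridisation controls (0.12), which lies below the median of all probe sets under that scaling (0.15).

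Beyond the members, the table held 2 related probe sets, neither of which passed. Gsdmcl-ps, the pseudogene that follows Gsdmc4, measured 3.79, 4.03 and 4.20 in vehicle and 4.47, 4.31 and 4.45 log2 units in dDAVP replicates 1, 2 and 3. All dDAVP values lay above the vehicle values, as in 8.07% of all probe sets, by 0.11 at the nearest. The log2 change was 0.40 ± 0.11 (SE, limma adjusted p = 0.352). Whether its probes also take up Gsdmc transcripts was not tested.

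Gsdma, a gasdermin known from skin and upper gut epithelium, measured 3.17 ± 0.12 in vehicle and 3.40 ± 0.052 in dDAVP cells (SD, n = 3), with a log2 change of 0.23 ± 0.077 (SE, limma adjusted p = 0.479). These signals lie within the range of the 10 olfactory receptor probe sets, 2.65 to 3.56, genes that kidney cells are not known for. At such a signal the arrays give no sign of the transcript, and the change of a dim probe set can be compressed. The Gsdmc and Gsdme probe sets all lay above that range in every array.

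No measured gene on either side of the cluster passed the test (0). By RefSeq order, the nearest 3 measured genes before Gsdmc were the non-coding RNAs 4930449C09Rik (log2 change 0.02 ± 0.12, SE), Gm20740 (-0.05 ± 0.098) and Pvt1 (0.16 ± 0.082). After the pseudogene came Cyrib, a regulator of Rac signalling and actin, and Asap1, a GTPase-activating protein for Arf proteins. Cyrib measured 10.38 ± 0.031 in vehicle and 10.55 ± 0.034 in dDAVP cells (SD, n = 3), with a log2 change of 0.18 ± 0.056 and a limma adjusted p of 0.461. For Asap1 the log2 change was -0.02 ± 0.067. Of the 18 nearest measured genes around the cluster, Gsdmd and Gsdme together, 0 passed in limma, where 0.291% of all genes did, and 3 had an unadjusted p below 0.05, where 7.80% of all genes did. Their log2 changes ran from -0.07 to 0.40, the highest being that of Gsdmcl-ps.

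**Figure D2:**
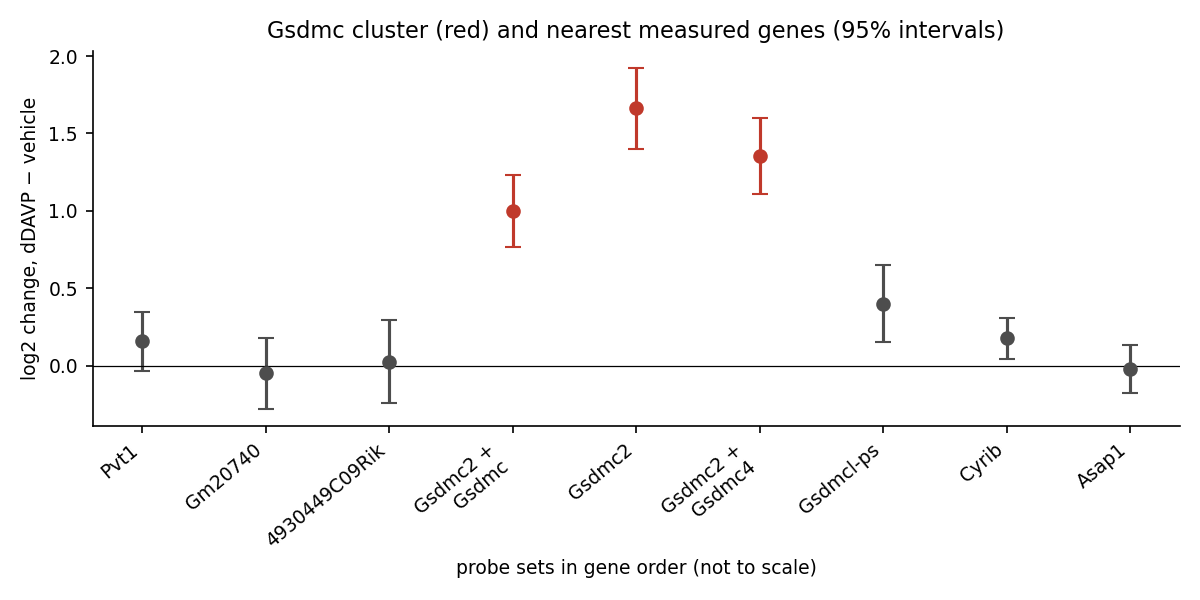
Log2 change (dDAVP minus vehicle) with 95% limma intervals for the Gsdmc probe sets (red) and the nearest measured genes (grey), in the gene order of chromosome 15 but not to scale. The red points lie between 1.00 and 1.66, and the highest grey point is Gsdmcl-ps at 0.40.

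Likeness of profile was measured as the Euclidean distance between the 6 log2 values of 2 probe sets, each centred on its own mean, starting from the brightest probe set that names Gsdmc2, that shared with Gsdmc4. Over 23097 probe sets with a single gene name the 5 nearest included the Gsdmc2 probe set, at number 2 with a distance of 0.40. A pair of probe sets of Nipal1, of the magnesium transporter family, stood at number 1 (0.22) and number 3 (0.43). Sprr1a, a small proline-rich protein of cornified epithelia, was number 4 (0.43), and Fcgbp, a secreted protein of mucus, number 5 (0.47). Pearson's r over the 6 arrays was 0.967 to 0.997 for the 5, a description with no test, since all share the step between the same vehicle and dDAVP arrays. Nipal1 on the nearer probe set measured 7.02, 7.00 and 7.08 in vehicle and 8.44, 8.22 and 8.44 log2 units in dDAVP replicates 1, 2 and 3, with replicate 2 the lowest dDAVP array, as for both probe sets on which Gsdmc2 rose most.

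**Figure D3:**
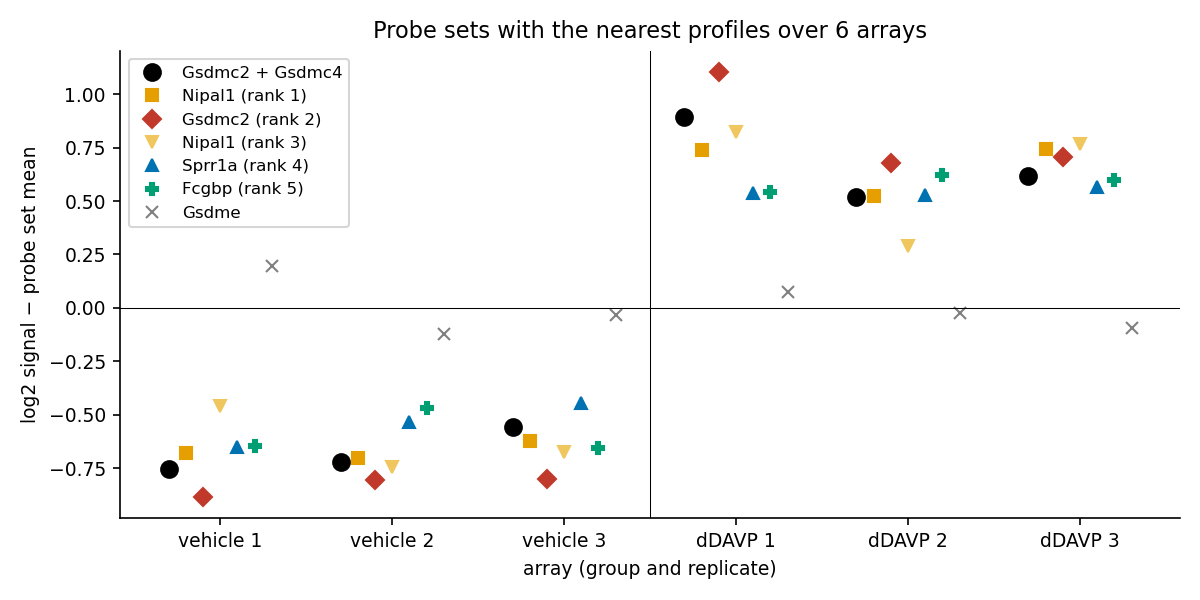
Log2 signal minus the mean of each probe set in the 6 arrays, for the probe set shared by Gsdmc2 and Gsdmc4 (black), the 5 nearest single-gene probe sets (colours) and Gsdme (grey crosses). The coloured points follow the black ones up between vehicle and dDAVP, and the Gsdme crosses overlap between the groups.

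No measured gene of the pathway lists passed the test. The 7 lists held genes acting before or after gasdermins in pyroptosis, genes of necroptosis and death-domain signalling, and those of type 2 cytokine signalling. Of their 96 genes, 62 were measured by a probe set of their own. Over all probe sets 0 passed in limma, where 0.291% of all genes did. Of the 62, 4 had an unadjusted p below 0.05, where 7.80% of all genes had one. The median log2 change was 0.03 over the 62 genes and 0.01 over all 12364 genes.

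Upstream, inflammasomes are the sensor complexes that activate inflammatory caspases. Of 14 listed sensors and adaptors 5 were measured, with log2 changes from -0.10 to 0.09. Nlrp12, at a mean of 3.10, lay within the range of the olfactory receptors. Nlrp6, Naip6 and Mefv were dim, at means of 3.90, 3.90 and 4.50, and changes of dim probe sets can be compressed. Nek7, a kinase that serves the Nlrp3 sensor, was at 10.08 ± 0.088 in vehicle and 10.08 ± 0.0096 in dDAVP cells (SD, n = 3), a log2 change of 0.0044 ± 0.064 (SE). Of the 14 caspases and other proteases 5 were measured, with changes from -0.08 to 0.07. Casp8, an initiator of apoptosis that can also cut gasdermins, was at 0.07 ± 0.066, Casp6 at 0.0040 ± 0.067, Casp9 at -0.03 ± 0.070, Casp2 at -0.08 ± 0.064 and the lysosomal protease Ctsb at 0.07 ± 0.062 (SE). Casp1, Casp4 and Pycard, which act in the cleavage of Gsdmd, were not analysed here.

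Of the 10 listed regulators of gasdermin D all were measured and 0 passed, where 0.291% of all genes did. In limma 2 of the 10 had an unadjusted p below 0.05, where 7.80% of all genes had one. These were Zdhhc9 and Lyplal1 (log2 change 0.14 ± 0.059, SE), both higher with dDAVP, and a count in a list this short is a description. Irf2, a transcription factor of Gsdmd, changed by 0.0088 ± 0.062, and the palmitoyl transferase Zdhhc9 by 0.21 ± 0.064 (SE, limma adjusted p = 0.421). Lamtor1, the brightest of the list and a scaffold on the lysosome, changed by 0.06 ± 0.086. The 6 measured genes of necroptosis and death-domain signalling ran from -0.0073 for Mlkl, the pore protein of necroptosis, to 0.23 for the death receptor Tnfrsf10b (limma adjusted p = 0.674). Tnfrsf1a, a receptor of tumour necrosis factor, was at 0.01 ± 0.074.

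The receptors and kinases through which type 2 cytokines act were measured for 8 of 9 genes, with a median of 0.02. Stat6, their transcription factor, was at 8.72 ± 0.031 in vehicle and 8.82 ± 0.031 in dDAVP cells (SD, n = 3), a log2 change of 0.10 ± 0.056 (SE, limma adjusted p = 0.725). The receptor chains Il4ra and Il13ra1 changed by 0.08 ± 0.13 and -0.09 ± 0.069, and the kinase Jak1 by -0.03 ± 0.056. None of these passed (0 of 8, with 1 at an unadjusted p below 0.05 in limma, the dim decoy receptor Il13ra2 at -0.14).

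Downstream, 6 of 16 interleukin-1 family genes were measured. Il18, a cytokine released through gasdermin pores, measured 5.46 ± 0.26 in vehicle and 5.71 ± 0.043 in dDAVP cells (SD, n = 3), with a log2 change of 0.24 ± 0.12 (SE, limma adjusted p = 0.694). The receptor chain Il1rap had the lowest value, -0.26 ± 0.099 (adjusted p = 0.564), and Il1r1, the brightest of the list, was at -0.13 ± 0.081. Of 23 genes of membrane rupture and repair 22 were measured, with changes from -0.15 to 0.12 and a median of 0.03. Ninj1, which breaks up the membrane in the last step of lysis, was at 0.05 ± 0.083. The membrane-repair subunit Chmp4b was at 0.09 ± 0.058, and the calcium-dependent membrane binder Anxa1 at 0.04 ± 0.066.

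**Figure D4:**
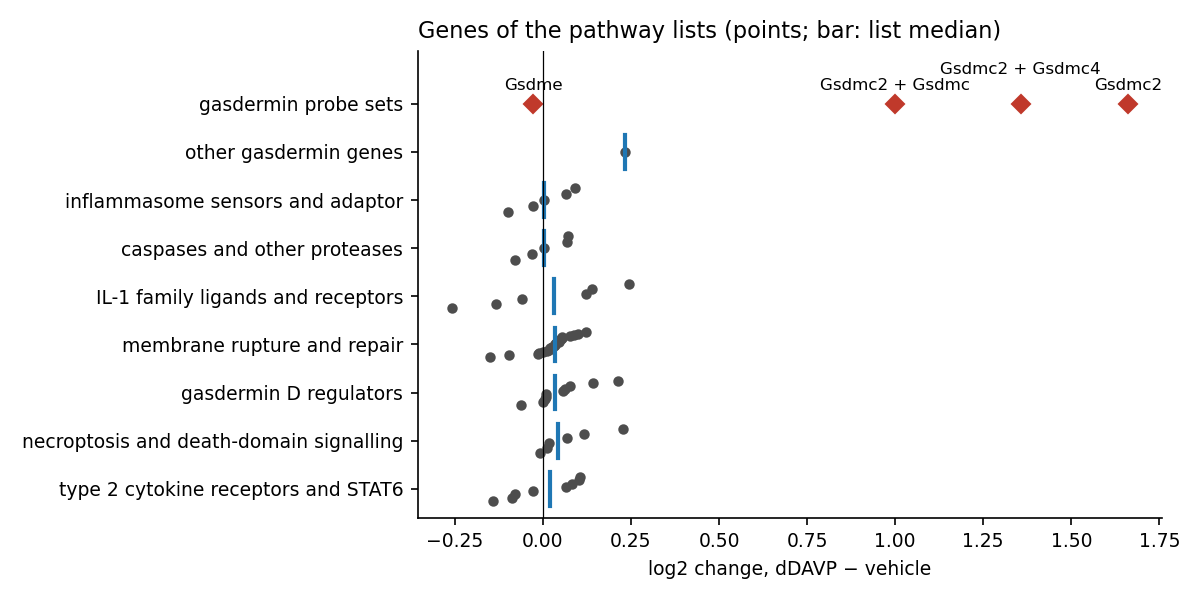
Log2 change (dDAVP minus vehicle) of the measured genes in 8 lists, 7 of pathway genes and 1 of other gasdermins (grey points, with the list median as a blue bar) and of the 4 gasdermin probe sets (red). The listed genes lie between -0.26 and 0.24, and the 3 Gsdmc probe sets between 1.00 and 1.66.

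Some gasdermins are also abundant in white blood cells, whose markers were set beside the rise. Of 10 leukocyte markers 5 were measured, 0 passed, and their summed signal was 9.54 to 9.70 log2 units in vehicle and 9.44 to 9.58 in dDAVP arrays. Csf1r, at a mean of 9.36, made up most of this sum, with a log2 change of -0.13 ± 0.072 (SE). The other 4 had means of 3.21 to 5.56, and 1 of the 5, Cd68, had an unadjusted p below 0.05 (0.20 ± 0.079, limma adjusted p = 0.593). The defining marker Ptprc, at a mean of 3.21, lay within the range of the olfactory receptors and changed by 0.22 ± 0.099. Markers of intercalated cells, which move acid and base beside the principal cells, were measured for 5 of 10 genes and summed to 9.79 to 9.94 in vehicle and 10.00 to 10.05 in dDAVP arrays, a sum led by the ammonia transporter Rhcg. None passed (0), and 2 of the 5, both proton pump subunits, had an unadjusted p below 0.05 in limma, Atp6v1b1 at 0.32 ± 0.063 and Atp6v0a4 at 0.42 ± 0.12 (SE). The part of either cell type in the rise of the Gsdmc probe sets was not tested. Proximal tubule (3 of 9), fibroblast (3 of 8) and endothelial (2 of 7) markers had 0 changed genes in limma, with 0 at an unadjusted p below 0.05. Over all genes, 0.291% passed and 7.80% had an unadjusted p below 0.05 in limma, so the counts in lists this short are a description. In a bulk sample, more cells with a transcript and more transcript per cell cannot be told apart.

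**Figure D5:**
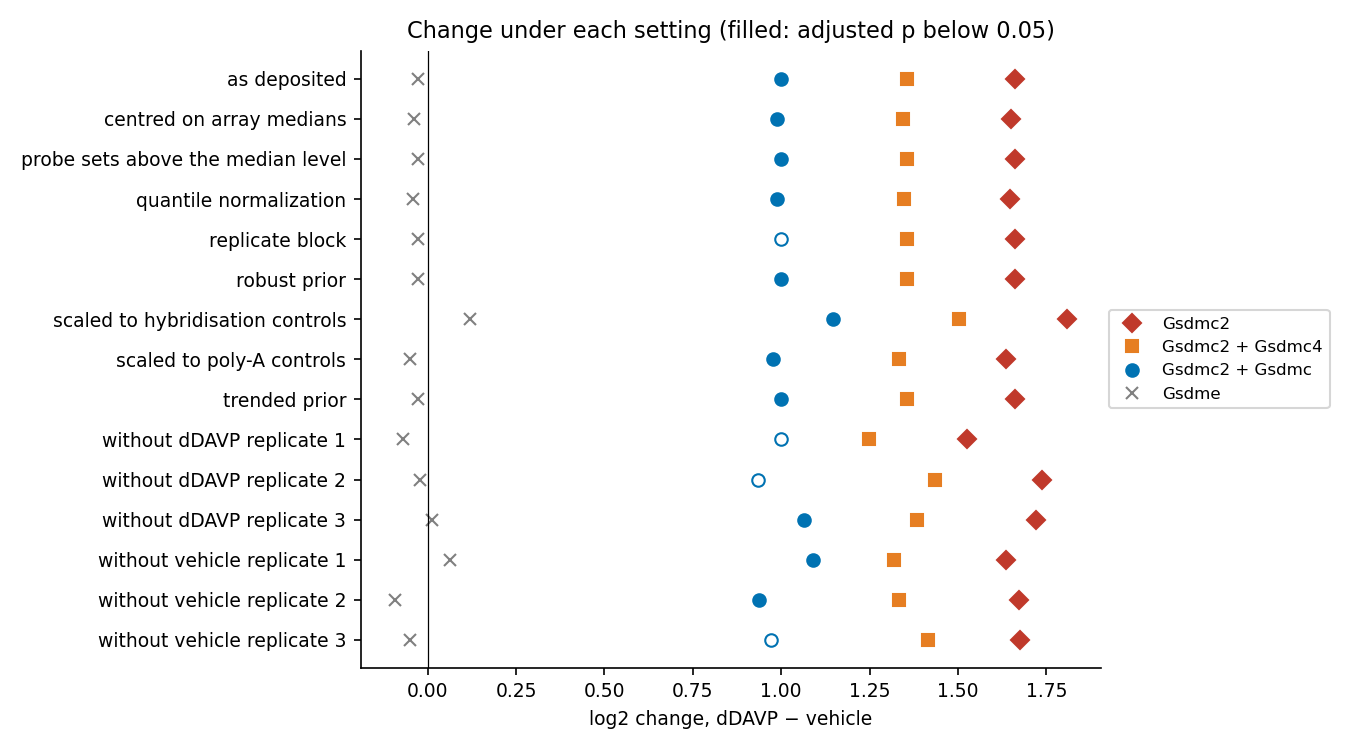
Log2 change (dDAVP minus vehicle) of the 4 member probe sets with the values as deposited and under each alternative, filled where the limma adjusted p was below 0.05 (Gsdme, drawn as crosses, passed in none). Changes of the Gsdmc2 probe set lie between 1.52 and 1.81, and open circles for the set shared with Gsdmc mark the fits in which its call ended.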

How the data were processed

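The authors deposited log2 signals, 1 per probe set and array, and all 6 columns were used. Per the submitters' processing notes MAS5, RMA and Affymetrix Expression Console 1.1 were used; their roles are not given in the sources used here. Summaries over probes can compress changes of dim probe sets. Of 28287 rows, the 62 Affymetrix controls served only for scaling. The annotation gave 1 symbol for 23097 probe sets, several for 611 and none for 4517.

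The groups, taken from sample titles, were compared with limma 3.58.1 in R 4.3.3 (lmFit and eBayes) over 28225 probe sets with Benjamini-Hochberg adjustment and a threshold of 0.05, with code tested on simulated data. Other genes were represented by their brightest probe set with a single symbol, 12364 in all. Named were all members, listed genes that passed or else the brightest of a class, the 5 nearest profiles and the nearest 3 measured genes on either side. Further listed genes and the TATANA motif were chosen after their values were seen. Per-array differences used exact permutation tests (scipy 1.17.1). Members, lists and tests were chosen with earlier results of these data known.

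Deviations from the group mean in same-numbered arrays correlated at 0.20, 0.046 and -0.052 for replicates 1, 2 and 3, so the numbers were not taken to pair samples. Alternatives were quantile normalization, centring, scaling to added controls, a filter on dim probe sets, other priors, a replicate block, a threshold of 0.01, each array left out and, for lists, averaging probe sets by gene.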

Additional observations from a re-analysis of the deposited data

How the results depend on the processing

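The rises of the Gsdmc2 probe set (1.52 to 1.74 on leaving out 1 array, 1.64 to 1.81 otherwise) and of that shared with Gsdmc4 (1.25 to 1.44, 1.33 to 1.50) passed in every fit at 0.05 and, in the values as deposited, at 0.01. The set shared with Gsdmc ranged from 0.93 to 1.09 on leaving out 1 array and did not pass in 3 of those 6 fits. With the replicate number as a block (1.00, limma adjusted p = 0.0565) and at a threshold of 0.01 (1.00, adjusted p = 0.0114) it did not pass either. The numbers were not shown to pair the samples, and the block changed no other call among the members. The sign of Gsdme turned with hybridisation scaling (0.12), without dDAVP replicate 3 (0.014) and without vehicle replicate 1 (0.064), from -0.094 to 0.064 over the arrays left out, and it passed in none of these fits (0). The total of probe sets changed was 61 as deposited, and each other fit gave its own total: 95 with only those above the median level, 24 with the replicate block, 282 with hybridisation scaling, 23 at a threshold of 0.01, 146 with a trended prior and 22 to 46 on leaving out 1 array. The 8 lists had 0 changed members by limma under every alternative run. In the values as deposited, 5 of their 63 measured genes had an unadjusted limma p below 0.05, where 7.80% of all genes had one. The causes were not tested. Signals near those of the olfactory receptors, such as Gsdma's, limit what can be seen of dim genes.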
